A study of Rattus norvegicus with 24 samples.

Results

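The 40 genes described here act in mitosis and in DNA replication. They were taken by name from the 30667 genes of the table, but earlier results of these data were known when they were chosen. All 40 were found: 21 genes of mitosis, 16 genes of S phase and 3 transcription regulators of the cell cycle. The study set up a rat model of lung cancer with smoky coal, a bituminous coal burned in households, and measured messenger RNA by Illumina sequencing in 24 samples of lung tissue. All 24 samples carry the protocol label smoky coal. Each sample title joins a letter (A, B, C or G) to a number from 1 to 6, so that each letter has 6 samples, each number has 4, and each combination has 1. Strain, sex, age, dose, duration, the meaning of the letters and numbers and any untreated control are not given in the sources used here, so every direction below is one between letters or between numbers alone. Nothing in the labels says that the samples came from separate animals, and p-values therefore measure only the spread between these samples.

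A cell that divides first copies its DNA in S phase and then separates the copies in mitosis. Transcripts of both sets are abundant in dividing cells and scarce in resting ones, which makes them a common measure of proliferation in tissue. S phase genes are classical targets of the E2F transcription factors, which act at entry into the cycle. Mitosis genes are expressed later, in G2 and mitosis; in resting cells the DREAM complex holds many of them silent through a promoter element called the cell cycle genes homology region, and in cycling cells Mybl2 and Foxm1 activate them. In the adult lung few cells divide at rest, and epithelial, endothelial, stromal and immune cells can each enter the cycle after injury or inflammation.

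The promoter elements by which the S phase set and the mitosis set are usually told apart were searched in RefSeq promoter windows of the rat assembly GRCr8, from 250 bases before to 50 bases after each transcription start. Windows were found for 31 of the 40 members, among them 18 mitosis genes and 12 S phase genes; Ccna2, Aurkb, Tpx2, Mcm4, Cdc6, Ccne2, Rrm2, Foxm1 and E2f1 were not among them. The letters TTTGAA of the homology region, read on either strand, occurred in 13 of 18 mitosis windows (72.2%), in 1 of 12 S phase windows (8.33%) and in 18.3% of all 33469 windows. The E2F letters TTTNNCGC, with N any base and either strand, occurred in 3 of 18 mitosis windows (16.7%), 7 of 12 S phase windows (58.3%) and 4.92% of all windows. CCAAT, the box bound by NF-Y, was common to both sets, with 15 of 18 (83.3%) and 7 of 12 (58.3%) against 37.5% of all windows. These shares describe letters, not binding.

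The sequences below are the 150 bases before the start, 5′ to 3′ along the gene, of 3 mitosis genes and 3 S phase genes that hold the element of their set; capitals mark the homology region in the first 3 and the E2F letters in the last 3. Top2a encodes the DNA topoisomerase that untangles sister chromatids (chr10:84473094-84473243, minus strand; the element is read on the opposite strand). Cdk1 encodes the kinase that drives entry into mitosis (chr20:19265143-19265292, plus strand), and Cdc20 the activator of the anaphase-promoting complex (chr5:137255800-137255949, minus strand). Mcm5 (chr19:13488663-13488812, plus strand), Mcm6 (chr13:42404353-42404502, minus strand) and Mcm7 (chr12:22163179-22163328, minus strand) encode subunits of the helicase that opens DNA at replication origins. In Mcm6 the capitals span a forward and a reverse E2F match that overlap, and the Cdk1 stretch also holds 2 E2F matches, left in lower case.
Top2a: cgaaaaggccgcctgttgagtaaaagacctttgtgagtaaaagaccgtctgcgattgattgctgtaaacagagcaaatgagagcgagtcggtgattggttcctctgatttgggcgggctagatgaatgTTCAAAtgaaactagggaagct
Cdk1: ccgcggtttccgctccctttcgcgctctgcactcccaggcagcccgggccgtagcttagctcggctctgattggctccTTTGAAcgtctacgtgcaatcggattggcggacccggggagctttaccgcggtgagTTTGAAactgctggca
Cdc20: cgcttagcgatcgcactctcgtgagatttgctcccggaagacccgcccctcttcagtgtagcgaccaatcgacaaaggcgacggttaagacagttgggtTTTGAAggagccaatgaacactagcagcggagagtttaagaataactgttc
Mcm5: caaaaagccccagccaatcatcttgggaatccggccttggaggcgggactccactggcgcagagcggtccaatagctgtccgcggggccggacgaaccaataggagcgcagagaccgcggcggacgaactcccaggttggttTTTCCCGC
Mcm6: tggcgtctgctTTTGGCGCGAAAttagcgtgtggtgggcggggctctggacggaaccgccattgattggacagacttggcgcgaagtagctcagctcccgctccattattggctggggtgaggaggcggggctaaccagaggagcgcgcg
Mcm7: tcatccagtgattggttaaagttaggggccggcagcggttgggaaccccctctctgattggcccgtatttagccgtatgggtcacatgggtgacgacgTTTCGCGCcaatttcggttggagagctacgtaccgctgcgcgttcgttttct

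The values are the authors' normalized read counts per gene, and their sums differed between samples by at most 1.07-fold. The number of reads behind them is unknown, so no counting interval is given. Differences below are between means of log2(normalized count + 1), which understates the change of low genes. Lung markers were high throughout: Sftpc, surfactant protein C of alveolar type 2 cells, was at least 603887 in every sample and Scgb1a1, the club cell secretory protein, at least 303417. Marco, a receptor of alveolar macrophages, was below 10 in all 24 samples. None of the 276 sample pairs held identical values. For 7 members another protein-coding gene overlaps the locus in the RefSeq table (Aurka with Fam210b, Plk1 with Ern2, Kif11 with Ide, Nusap1 with Ndufaf1, Ccne2 with Ints8, Rrm2 with Cys1 and Foxm1 with Tex52), and since the strand setting of the counting is not given in the sources used here, their values are uncertain to that extent. These are rat loci, and whether the authors counted on rat or mouse genes is not given either.

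Sample A2 stood at the top of almost the whole set: 38 of the 40 members had their highest value there. The exceptions were Aurkb, the kinase of the chromosomal passenger complex, which was highest in G2 (8432 normalized counts), and Tyms, the thymidylate synthase that makes a DNA precursor, which was highest in G5 (609 normalized counts). Among mitosis genes the highest sample exceeded the lowest by 1.46-fold (Aurka) to 15.9-fold (Ttk), with a median of 9.82-fold. Among S phase genes the ratio ran from 1.65-fold (Tyms) to 21.6-fold (Cdc6), with a median of 4.71-fold. The heat map of centred log2 values shows the set as vertical bands, one sample at a time, with little structure by letter.

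**Figure D1:**
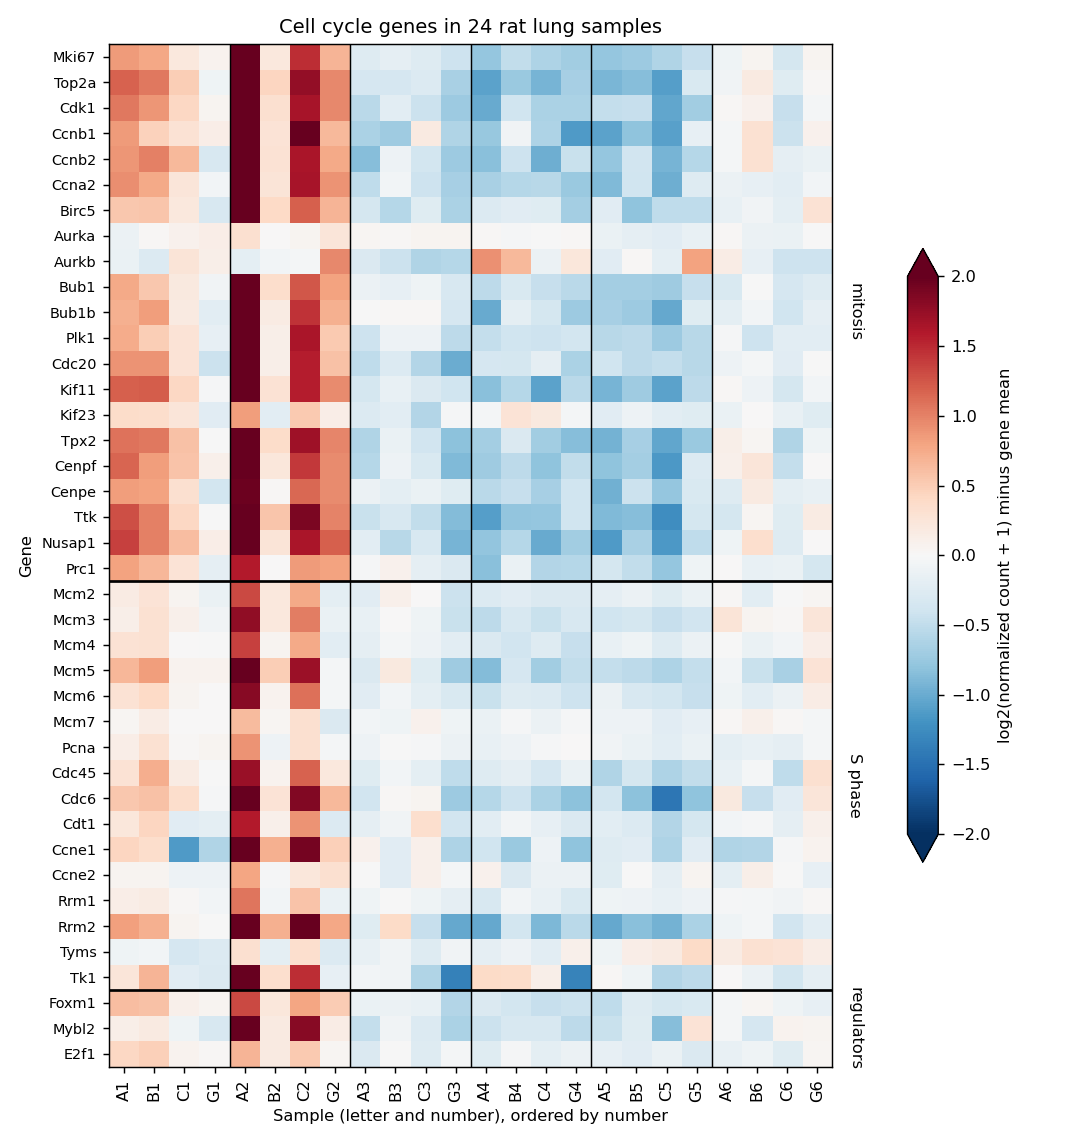
Each row is 1 of the 40 genes and each column 1 of the 24 samples, ordered by number; colour is log2(normalized count + 1) minus the gene's mean over all samples, with the scale closed at 2 in each direction. Columns A2 and C2 are red in nearly all rows, G2 is red in the mitosis rows and pale in most S phase rows, and the columns numbered 4 and 5 are mostly blue.

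Most of the variation of the mitosis genes lay between sample numbers. In limma's F test across the 6 numbers, with letter in the model, 33 of 40 members passed an adjusted p of 0.05: 20 of 21 mitosis genes, 10 of 16 S phase genes and all 3 regulators. Of all genes tested, 31.5% passed the same test. The smallest adjusted p in limma among the members was that of Nusap1, a spindle microtubule protein (6.43e-05), followed by Top2a (7.87e-05). The 7 members that did not pass were Aurkb, Mcm7, Pcna, Cdt1, Ccne2, Rrm1 and Tyms, with limma adjusted p between 0.0585 (Aurkb) and 0.222 (Mcm7). The count was also 33 without the 4 samples numbered 2, where 25.4% of all genes passed, and without A2 and C2, where 28.3% did. The share of a gene's variance that lay between numbers had a median of 72.8% over mitosis genes and 49.998% over S phase genes, against 37.1% over all genes and 50.5% over those whose mean was 100 or more. It was highest for Nusap1 (80.1%) and lowest for Mcm7 (32.3%). Between letters the median shares were 3.24% and 7.45%, against 9.45% over all genes.

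The 4 samples numbered 2 were the highest group for most members, but unequally. Mki67, the nuclear protein used to mark cycling cells, measured 4647 in A2, 1103 in B2, 2644 in C2 and 1524 in G2, and 557 (A5) to 1729 (A1) in the other 20 samples. A2 and C2 thus lay above every sample of another number, while B2 and G2 lay inside their range. Mki67 was 1.39 higher on the log2 scale in number 2 than in the mean of the other 5 numbers (SE 0.21, limma adjusted p 8.29e-05). Top2a had 4362 in A2, 1039 in B2, 2638 in C2 and 1510.2 in G2, against 360 (C5) to 1757 (A1) elsewhere, and a difference of 1.69 (SE 0.24). Cdk1 had 2105, 528, 1317 and 816 in A2, B2, C2 and G2, against 205 (C5) to 875 (A1) elsewhere, and a difference of 1.57 (SE 0.22). The order A2, C2, G2, B2 was the same for these genes.

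**Figure D2:**
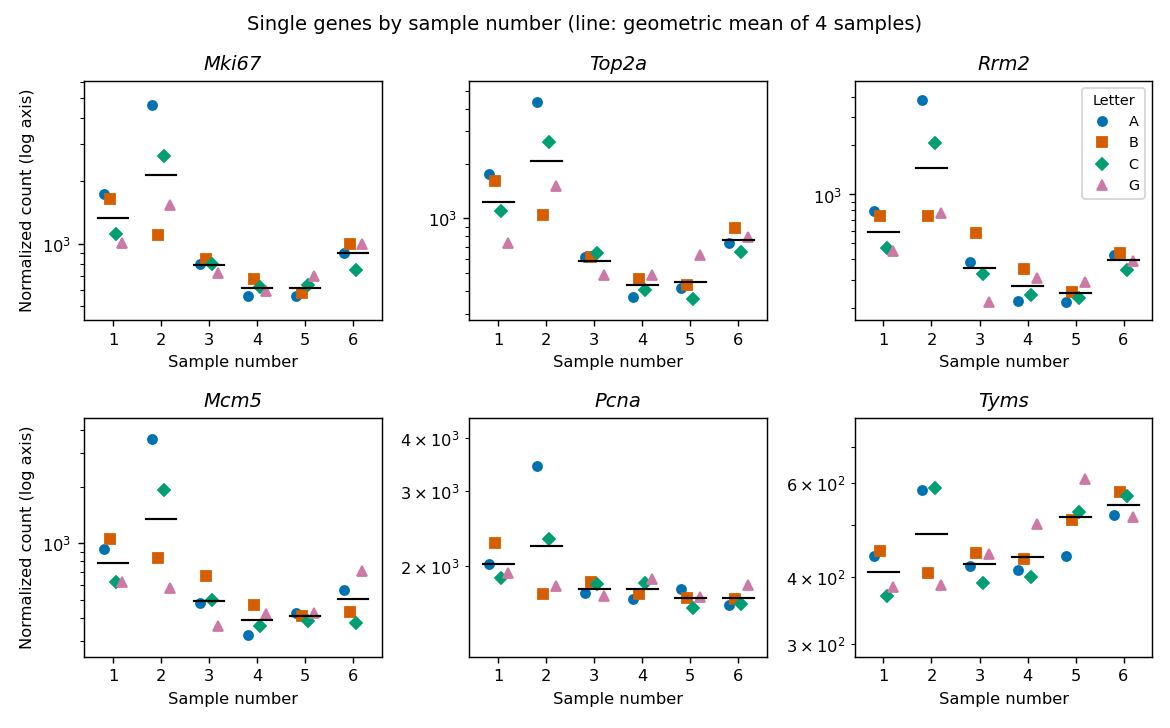
Normalized counts on a log axis of 6 member genes by sample number, with the letter as marker and the geometric mean of 4 samples as a line. For Mki67, Top2a and Rrm2 A2 and C2 are the highest of all 24 points. For Tyms the highest point is G5 (609), and the highest of number 6, B6 (575), lies just below A2 and C2.

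In all, 37 of 40 members were called higher in number 2 and none lower, at limma's adjusted p of 0.05, where 21.8% of all genes were called and 11.5% were called higher. The 37 were 20 of 21 mitosis genes, 14 of 16 S phase genes and the 3 regulators. The median difference was 1.40 over mitosis genes, 0.78 over S phase genes and 0.01 over all genes on the log2 scale. Much of this rested on A2 and C2: with both left out 13 members were still called, of which 11 were mitosis genes (Mki67, Top2a, Cdk1, Ccna2, Birc5, Bub1, Plk1, Kif11, Tpx2, Ttk and Nusap1), 1 was the S phase gene Rrm2 and 1 the regulator Foxm1, with 9.6% of all genes called. Without A2 alone 30 members were called and without C2 alone 33.

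The cyclins and kinases that carry a cell through mitosis moved with Mki67. Ccnb1, the cyclin B that activates Cdk1, measured 359 in A2, 62.6 in B2, 232 in C2 and 81.6 in G2, against 23.2 (G4) to 94.5 (A1) in the other samples (log2 difference 1.74, SE 0.32, limma adjusted p 0.000463). Its level was low throughout, so that the pseudocount weighs more on its fold change than on that of Mki67. Ccnb2 and Ccna2, the cyclins B2 and A2, were higher by 1.56 and 1.61 on the log2 scale. Plk1, a kinase of spindle assembly and mitotic exit, measured 1446 in A2, 300.3 in B2, 857 in C2 and 399 in G2, against 166 (C5) to 461 (A1) elsewhere (log2 difference 1.40, SE 0.22). Birc5, or survivin, a subunit of the chromosomal passenger complex, measured 577, 174, 303 and 211 in A2, B2, C2 and G2, against 74.7 (B5) to 193 (B1) elsewhere (log2 difference 1.32, SE 0.19). For Birc5 B2 alone of the 4 was inside the range of the other numbers.

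Of the Aurora kinases, Aurkb did not share this pattern and Aurka shared it only in part. Aurkb measured 3782 in A2, 4180 in B2, 4201 in C2 and 8432 in G2, and 2856 (C3) to 8177 (A4) in the other samples. Its high values were scattered over G2, A4, G5 (7547) and B4 (6788), and its log2 difference in number 2 was 0.20 (SE 0.18, limma adjusted p 0.497). Aurka, the kinase of centrosome maturation, varied over 1648 (C5) to 2410 (A2), the narrowest range of the mitosis genes, and was higher in number 2 by 0.19 (SE 0.05, limma adjusted p 0.00707). Kif23, a kinesin of cytokinesis, also varied less than most (980, in C3, to 2613, in A2) and was higher by 0.38. Correlations of log2 values with Mki67 over the 24 samples were at least 0.9 for 18 of the 21 mitosis genes, counting Mki67 itself, and -0.09 for Aurkb, 0.60 for Aurka and 0.73 for Kif23.

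The checkpoint, kinetochore and spindle genes were called higher in number 2 without exception. Bub1, a kinase of the spindle checkpoint, had the smallest limma adjusted p of the members in this contrast (1.81e-05, log2 difference 1.36, SE 0.17). It measured 2377 in A2, 680.2 in B2, 1258 in C2 and 931 in G2, against 327 (C5) to 904 (A1) elsewhere. Bub1b, Ttk, Cenpe and Cenpf, which act at kinetochores and in the same checkpoint, were higher by 1.38, 1.85, 1.22 and 1.42. The motor Kif11, the spindle factors Tpx2, Nusap1 and Prc1, and Cdc20 were higher by 1.54, 1.70, 1.62, 0.98 and 1.37.

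Each of the 3 regulators lay above every sample of another number in A2 and C2, and inside their range in B2 and G2. Foxm1, the forkhead factor of G2 and mitosis genes, measured 1235 in A2, 578 in B2, 852 in C2 and 698 in G2, against 330 (G3) to 756 (A1) elsewhere, and was higher by 0.85 (SE 0.12, limma adjusted p 4.75e-05). Mybl2, or B-Myb, which joins the same activating complex, measured 698, 135, 422 and 132 in A2, B2, C2 and G2, against 65.6 (C5) to 145 (G5) elsewhere (log2 difference 1.40, SE 0.28). E2f1, the activator of S phase genes, measured 1188 in A2, 843 in B2, 1066 in C2 and 766 in G2, against 606 (G5) to 1040.1 (B1) elsewhere, and was higher by 0.42 (SE 0.10, limma adjusted p 0.00276).

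Among S phase genes the largest change was that of Rrm2, the regulated subunit of ribonucleotide reductase, which supplies deoxynucleotides. It measured 3831 in A2, 735 in B2, 2075 in C2 and 768 in G2, against 220 (G3) to 794 (A1) elsewhere, and was higher in number 2 by 2.03 (SE 0.28, limma adjusted p 3.57e-05). Rrm1, the subunit that is held more constant over the cycle, was higher by 0.44 (SE 0.12). Without A2 and C2 that Rrm1 difference was -0.02, and that of Rrm2 was 0.997 (limma adjusted p 0.00599). Tk1, thymidine kinase, was higher by 1.19 (SE 0.24), and Tyms had a difference of 0.06 (limma adjusted p 0.771).

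The genes that license and fire replication origins were highest in A2 and C2, and most lay inside the range of the other numbers in B2 and G2. Mcm5 measured 3579 in A2, 827 in B2, 1928 in C2 and 575 in G2, against 322 (A4) to 1046 (B1) elsewhere (log2 difference 1.43, SE 0.28). Mcm2 measured 4579, 2133, 3099 and 1603 in A2, B2, C2 and G2, against 1364 (G3) to 2218 (B1) elsewhere (log2 difference 0.63, SE 0.14). In both genes B2 and G2 lay inside the range of the other numbers. Mcm3, Mcm4 and Mcm6 were higher by 0.86, 0.59 and 0.89, all past the threshold. Mcm7 measured 4099 in A2, 2723 in B2, 3311 in C2 and 2170.0 in G2, against 2269 to 2929 elsewhere, and its difference of 0.21 did not pass (limma adjusted p 0.0833). Cdc6, which loads the helicase together with Cdt1, measured 558, 87.5, 262 and 113 in A2, B2, C2 and G2, against 25.8 (C5) to 109 (B1) elsewhere (log2 difference 1.71, SE 0.28). Cdt1 and Cdc45, a helicase cofactor, were higher by 0.70 and 0.96.

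Cyclin E, the partner of Cdk2 at the start of S phase, and the sliding clamp Pcna had their own forms. Ccne1 measured 636 in A2, 128 in B2, 299 in C2 and 109 in G2, against 35.3 (C1) to 106 (A1) elsewhere, so that all 4 samples numbered 2 lay above all 20 others (log2 difference 1.83, SE 0.30, limma adjusted p 0.000191). Ccne2 was higher by 0.40. Pcna, which holds DNA polymerases on the template and also serves in DNA repair, measured 3435 in A2, 1710 in B2, 2310.2 in C2 and 1787 in G2, against 1584 (C5) to 2266 (B1) elsewhere (log2 difference 0.32, SE 0.10). Without A2 and C2 the Pcna difference was -0.05. Tyms measured 581, 407, 586 and 387 in A2, B2, C2 and G2, against 370 (C1) to 609 (G5) elsewhere, with no separation by number 2.

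**Figure D3:**
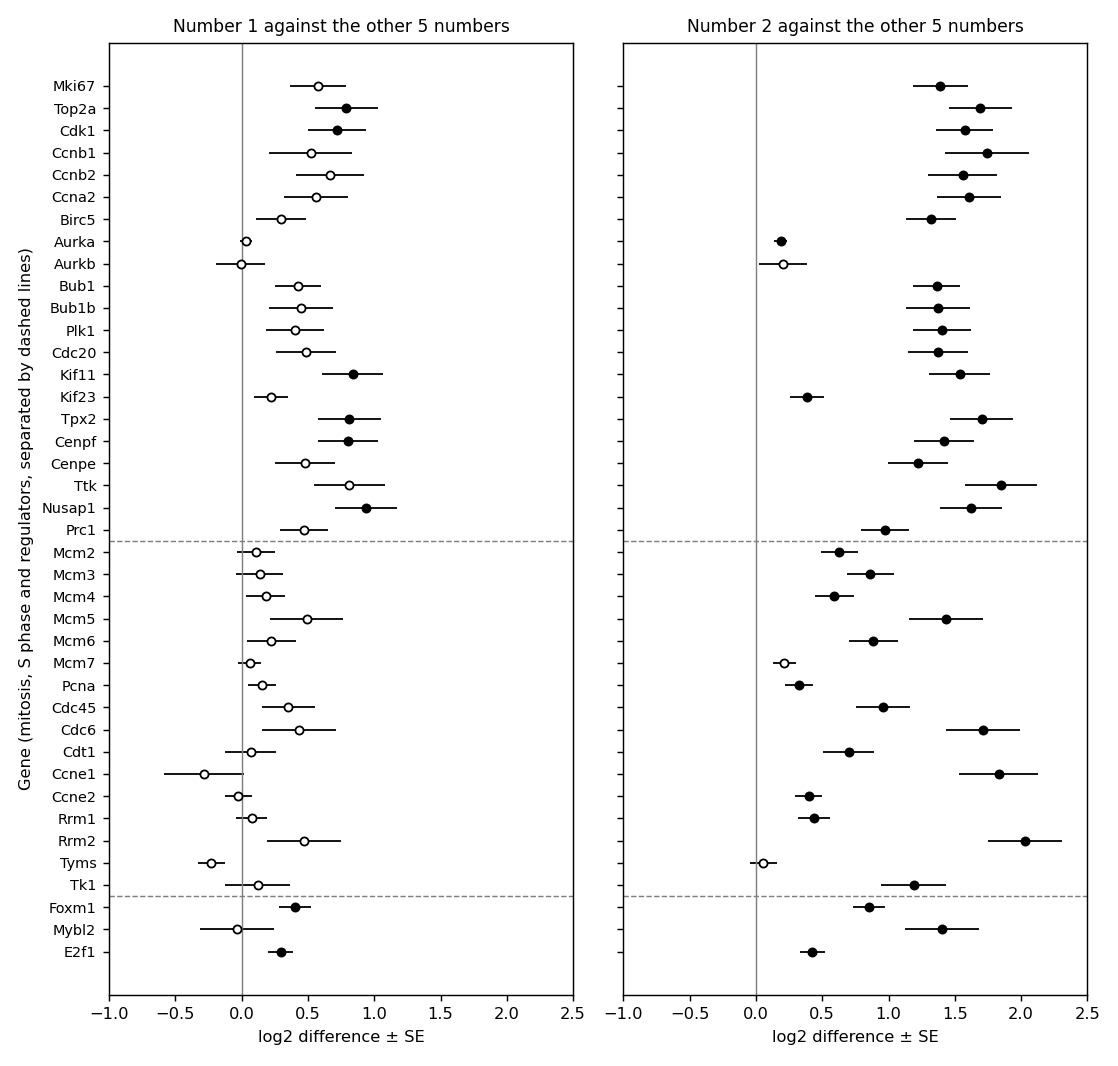
Log2 difference ± SE, from the limma fit with letter in the model, of number 1 (left) and number 2 (right) from the mean of the other 5 numbers; filled points passed an adjusted p of 0.05 and open points did not. In number 2 the mitosis genes lie mostly between 1.2 and 1.9 and the S phase genes spread from 0.06 to 2.03, and in number 1 the 8 filled points are mitosis genes and regulators.

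Other cell types moved with number 2 as well. At limma's adjusted p of 0.05, all 8 markers of T cells were called higher, where 21.8% of all genes were called and 11.5% were called higher. Their summed level was 9505 to 14267 in number 2 and 5832 to 10993 in the other numbers. Of the macrophage markers 5 of 7 were called higher, and the other 2 were lower without passing. Their sums were 34454 to 56890 in number 2 against 21007 to 55348. So were 4 of 6 NK and cytotoxic markers and 4 of 5 plasma cell markers, and the rest of these 2 lists were higher without passing. Neutrophil markers summed to 37924 in A2, 23376 in C2, 8908 in B2 and 5960.1 in G2, against 3225 to 17966 elsewhere, so A2 and C2 were the highest here too. B2 and G2 lay inside the range of the other numbers, and only 2 of the 7 neutrophil markers were called higher. Of the endothelial markers 6 of 6 and of the alveolar type 1 markers 5 of 6 were called lower, and the remaining alveolar type 1 marker was lower without passing. No marker of these lists was at 0 in all 4 samples of number 2. The part of any of these cells in the changes of the cell cycle genes was not tested, and in whole tissue fewer cells of a type and less RNA per cell cannot be told apart.

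The samples numbered 1 came next, G1 excepted, with mitosis genes ahead of S phase genes. Against the mean of the other 5 samples of the letter, the median log2 difference of the mitosis genes was 0.80 in A1, 0.99 in B1, 0.44 in C1 and 0.08 in G1. Mki67 measured 1729 in A1, 1633 in B1, 1105 in C1 and 1007 in G1, all above the 16 samples numbered 3 to 6, the highest of which was G6 with 991. Against the mean of the other 5 numbers, 8 members were called higher in limma and none lower. They were Top2a, Cdk1, Kif11, Tpx2, Cenpf and Nusap1 of the mitosis genes, Foxm1 and E2f1 of the regulators, and no S phase gene. Only 1 S phase gene, Tyms, had an unadjusted p under 0.05 in limma, as 23.9% of all genes did, and it was lower in number 1 (log2 difference -0.23). Of all genes 11.9% were called and 5.62% were called higher. Nusap1 had the largest difference (0.94, SE 0.24, limma adjusted p 0.0115), with 543 in A1, 424 in B1, 325 in C1 and 229 in G1. Kif11 was higher by 0.84, Tpx2 by 0.81, Cenpf by 0.80, Top2a by 0.79, Cdk1 by 0.72, Foxm1 by 0.40 and E2f1 by 0.30.

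These calls rested on few samples. No member was called without A1 or without B1, where 6.25% and 7% of all genes were. Without C1 3 members were called (7.76% of all genes), and without A2 15 were (13.4%). The number 2 samples stood on the other side of this contrast, and without them 31 members were called higher in number 1, of which 19 were mitosis genes, 10 were S phase genes and 2 were regulators, with 15.1% of all genes called. The median difference in number 1, with all samples, was 0.52 over mitosis genes, 0.13 over S phase genes and -0.02 over all genes. Fibroblast markers were called higher in 3 of 6 cases in number 1, where 11.9% of all genes were called. Their sums were 348420 to 457123, against 120118 to 377429 in the other numbers. Of the smooth muscle markers 3 of 4 and of the endothelial markers 3 of 6 were called higher. T cell markers were called lower in 6 of 8 cases, with sums of 5832 to 6673. The part of these cells in the values of number 1 was not tested.

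Numbers 4 and 5 held most of the lowest values. In number 4, 6 members were called lower in limma (Top2a, Kif11, Nusap1, Mki67, Cdk1 and Foxm1) and none higher, where 4.74% of all genes were called and 2.02% were called lower. Top2a fell by 1.02 on the log2 scale (SE 0.24, limma adjusted p 0.0160), with 369 in A4, 463 in B4, 407 in C4 and 487 in G4. In number 5, 7 mitosis genes were called lower (Aurka, Nusap1, Bub1, Kif11, Tpx2, Top2a and Cenpf), where 1.97% of all genes were called and 1.09% were called lower. Nusap1 fell by 1.03 (SE 0.24), with 95.4 in A5, 133 in B5, 94.4 in C5 and 148 in G5. Aurka fell by 0.21 (SE 0.05, limma adjusted p 0.0291), with all 4 samples of number 5 between 1648 and 1760, the others lying between 1761 and 2410. No S phase gene was called in either number.

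Markers of other cell types differed in these samples too. In number 4, 3 of 5 erythroid markers were called higher in limma, where 4.74% of all genes were called. Their sums were 31949 in A4, 30903 in B4, 24792 in C4 and 3755 in G4. In number 5 none of the 5 passed (3 had an unadjusted p under 0.05), with sums of 23563 in A5, 16324 in B5, 21217 in C5 and 5172 in G5. Sample A4 stood apart in other lists: its skeletal muscle markers summed to 70585, against at most 15960 in any other sample, its cardiac muscle markers to 43518, against at most 17527, and its basal and squamous markers to 15874, against at most 1823. Fibroblast markers were split in number 4: 3 of 6 were higher, 2 of them called, and 3 were lower without passing. In number 5 they were called lower in 3 of 6 cases, where 1.97% of all genes were called. No marker of these lists was at 0 in all 4 samples of a number. The part of these cells or tissues in the values of the cell cycle genes was not tested.

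Single samples decided these calls. In number 4 no member was called without A4, B4 or C4, where 1.51%, 1.25% and 3.94% of all genes were, and 3 were called without G4 (3.81% of all genes). In number 5 none was called without A5, B5, C5 or G5, where 0.818%, 0.00652%, 0.0293% and 0.222% of all genes were. The samples numbered 2 stood on the other side of both contrasts. The count for number 4 was 15 without A2 (5.99% of all genes), 16 without B2 (4.86%) and 11 without G2 (6.44%). That for number 5 was 14 without A2 (2.88%), 22 without B2 (2.34%), 11 without G2 (2.91%) and 13 without A4 (2.83%). Without A2 and C2 together, 18 members were called in number 4 (6.08% of all genes) and 19 in number 5 (3.9%). Number 3 had no member called by limma (12 with an unadjusted p under 0.05, as for 17.4% of all genes; 4.98% of all genes called), but 2 were called without A2 (6.68% of all genes) and 9 without B2 (5.25%). Number 6 had none (1 with an unadjusted p under 0.05, Tyms, as for 22% of all genes; 8.13% of all genes called).

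The S phase set and the mitosis set were compared by a score per sample, the mean over the set of log2 values centred on each gene's mean over the 24 samples. The scores are a description and carry no test. A2 was first in both, with 2.04 for mitosis and 1.70 for S phase, and C2 was second in both, with 1.34 and 1.04. C5 was lowest in both, with -0.81 and -0.46. In number 1 the mitosis score was above the S phase score in all 4 samples: A1 had 0.82 and 0.27, B1 0.71 and 0.39, and C1 0.34 and -0.07. In G1, with -0.08 and -0.10, they were nearly equal.

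G2 parted the 2 sets furthest. Its mitosis score, 0.78, was the fourth highest of the 24 samples, and its S phase score, 0.04, the seventh, with the 6 Mcm subunits of the helicase at rank 14. All 21 mitosis genes were higher in G2 than in each of the other 5 samples of letter G, with a median log2 difference of 1.14 from their mean. Of the 16 S phase genes 5 were, with a median of 0.11, and of the 6 Mcm genes none was and 1, Mcm7, was lower than in all 5 others. In G2, 22.7% of all genes were above the other 5 samples of the letter. The S phase score minus the mitosis score was -0.74 in G2, against -0.02 to 0.14 in the other samples of letter G. In A2 and C2, by contrast, all 16 S phase genes, the Mcm genes included, were above the rest of their letter, with medians of 1.79 and 1.13 beside 2.49 and 1.84 for mitosis.

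**Figure D4:**
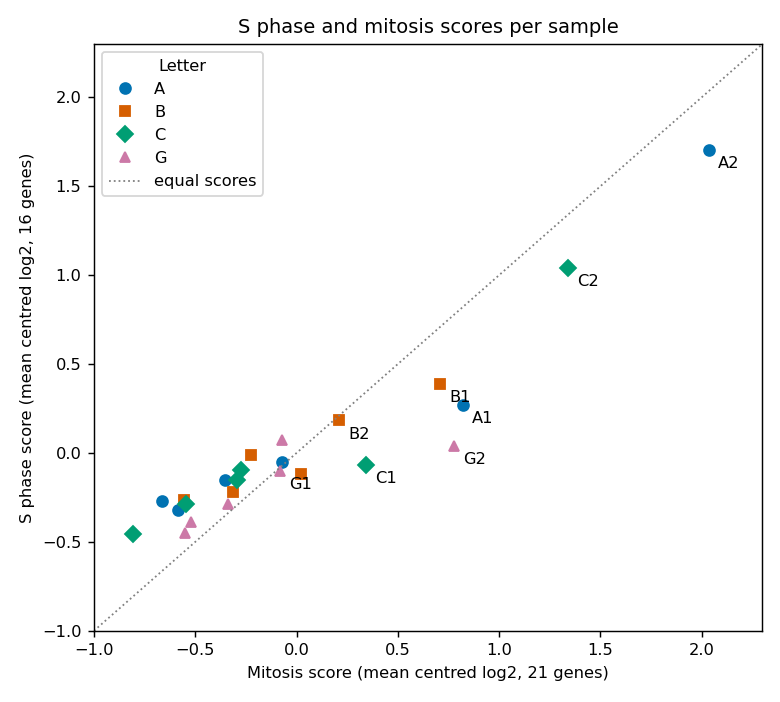
Each point is 1 of the 24 samples, with the mitosis score (21 genes) on the horizontal axis and the S phase score (16 genes) on the vertical axis, both in log2 units; the dotted line marks equal scores and the 8 samples numbered 1 and 2 are named. A2 and C2 lie far along the line, at 2.04 and 1.70 and at 1.34 and 1.04, and G2 lies well below it, at 0.78 and 0.04.

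The 5 S phase genes that stood above the rest of letter G in G2 were Cdc6, Ccne1, Ccne2, Rrm2 and Tk1. B2 differed from the other samples numbered 2 in that its members were mostly ordinary for its letter: 2 of 40 were above the other 5 B samples, where 18.5% of all genes were, and the highest B sample was B1, with 34 of 40 members above the others (16.9% of all genes). In A2 the count was 39 of 40 (26.5% of all genes) and in C2 38 of 40 (20.5%). The test of how far the 4 samples differ from each other was not possible, with 1 sample for each combination of letter and number.

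**Figure D5:**
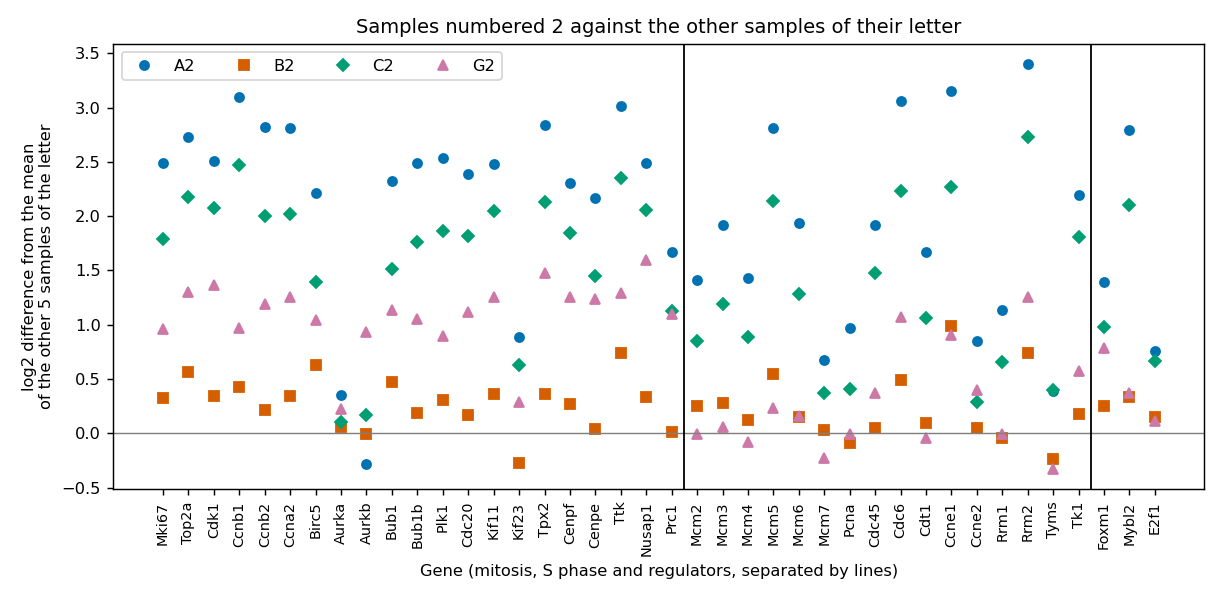
For each of the 40 genes, the log2 difference of A2, B2, C2 and G2 from the mean of the other 5 samples of the same letter. A2 and C2 are above 0 across nearly all genes (medians of 2.49 and 1.84 in mitosis), B2 runs from -0.27 to 0.99 (mitosis median 0.32), and G2 has a median of 1.14 for mitosis genes and 0.03 for the Mcm genes.

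The 2 sets also differed in how closely they kept to Mki67. Over the 24 samples, which share the authors' normalization, 7 of 16 S phase genes had a correlation of at least 0.9 with Mki67 (highest Rrm2, 0.97), with Tyms at 0.20, Tk1 at 0.75, Ccne2 at 0.77 and Mcm7 at 0.78. The median over S phase genes was 0.89, against 0.96 over the other mitosis genes. Without the 4 samples numbered 2 these medians were 0.79 and 0.91, over 20 samples. Correlation here describes likeness of pattern and was not tested.

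No member passed the test between letters, which was run without sample number in the model. In limma's F test across A, B, C and G none of the 40 passed an adjusted p of 0.05, where 0.00652% of all genes did. Only 1, Tk1, had an unadjusted p under 0.05, where 3.91% of all genes had one. With number as a block no member passed this F test either (smallest limma adjusted p 0.195, Tk1), where 12 genes were called. In the 6 pairs of letters, without a block, no member was called. The percentage of all genes called was 0 in each of the 3 pairs that lack G. It was 0.00652 in G against A, 0.00326 in G against B and 0.00652 in G against C. Members with an unadjusted p under 0.05 in limma numbered 1 in G against A and 1 in G against B, Tk1 in each case, and 0 in the other 4 pairs. Of all genes 8.15% and 3.67% had one in those comparisons, and 4.03% in G against C, 3.58% in B against A, 2.98% for C and A and 1.82% for C and B. Mki67 ran from 557 to 4647 in letter A (median 848), from 579 to 1633 in B (median 916), from 622 to 2644 in C (median 775) and from 592 to 1524 in G (median 855), so the letters overlapped. The median log2 difference of the members in G against A was -0.34, with 37 of 40 lower in G, against -0.01 over all genes; this includes A2.

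Tk1, the salvage enzyme that phosphorylates thymidine, was the member with the smallest p in the letter test. It ran from 168 (A3) to 871 (A2) in letter A, with a median of 191, from 161 (B6) to 281 (B1) in B, with a median of 194, and from 114 (C3) to 486 (C2) in C, with a median of 142. In G it ran from 67.9 (G3) to 156 (G2), with a median of 131, so that every G sample lay below every A and every B sample. The log2 difference of G from A was -1.13 (SE 0.37, limma unadjusted p 0.00517, adjusted p 0.432), from B -0.83 and from C -0.61. With sample number as a block the adjusted p of G against A was 0.0364, and Tk1 was then the only member called, where 1.27% of all genes were. Members with an unadjusted p under 0.05 then numbered 10 of 40, against 1 without the block, where 15.2% of all genes had one. In the check described in the processing, the correlations between G and A ran from -0.05 to 0.49, and 4 of them, not all, were over 0.1. By that check the numbers paired the samples of G and A only in part. Erythroid markers were lower in G in the same comparisons: all 5 had an unadjusted p under 0.05 in limma against A, B and C, and none passed after adjustment, with median log2 differences of -1.21, -1.27 and -1.17. Their sum was 3097 to 8971 in G, 3965 to 31949 in A, 4599 to 30903 in B and 3702 to 24792 in C, and none was at 0 in any sample. Their part in the values of Tk1 and the other members was not tested.

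Most cell cycle genes outside the 40 also differed by number. Of 40 other mitosis genes, 38 passed limma's test across numbers, where 31.5% of all genes did. In number 2, 39 were called higher, where 11.5% of all genes were. Kif22, a chromokinesin, was higher by 1.76 (SE 0.23, limma adjusted p 2.19e-05) and Pttg1, or securin, which restrains the separation of sister chromatids, by 1.41 (SE 0.19). Of 38 other S phase genes, 27 passed across numbers and 31 were called higher in number 2, beside the same shares of all genes. E2f7 and E2f8, repressors within the E2F family, were higher there by 1.52 and 1.81. The median difference in number 2 was 1.41 over the other mitosis genes and 0.68 over the other S phase genes, against 0.01 over all genes. No gene of these lists passed the letter test in limma, where 0.00652% of all genes did. Only 1 had an unadjusted p under 0.05, where 3.91% of all genes had one: Clspn, an adaptor of the replication checkpoint. It was 0.39 higher in G than in A, where 36 of the 38 other S phase genes were lower. The next smallest p in the S phase list was that of E2f2, and in the mitosis list Ube2c and Pttg1 had the smallest.

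Of 7 G1 cyclins and kinases 4 passed across numbers, where 31.5% of all genes did, and 2 were called higher in number 2, where 11.5% of all genes were. Ccnd2, cyclin D2, had the smallest p, and was higher in number 1 by 0.74 (SE 0.06, limma adjusted p 3.82e-07) and in number 2 by 0.39, and lower in number 6, by -0.83 (limma adjusted p 1.03e-06). Cdk6, its kinase partner, was higher in number 1 by 0.49. Of 12 inhibitors of the cycle 7 passed across numbers, and in number 2, where 21.8% of all genes were called, 5 were higher and 3 lower. Cdkn2c, the inhibitor p18, was higher by 0.34 in number 2 and by 0.39 in number 1, and Rbl2, the p130 protein of the DREAM complex, was lower by -0.21 in number 2 and higher by 0.24 in number 6. By letter none passed in either list in limma, where 0.00652% of all genes did. Only 1 had an unadjusted p under 0.05, where 3.91% of all genes had one. Cdk6 and Cdk2, and Cdkn1a and E2f4, had the smallest p. Cdkn1a, the p53 target p21, was 0.92 higher in G than in A (SE 0.18, limma unadjusted p 4.29e-05, adjusted p 0.188).

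Outside all of these lists, the genes whose pattern was most like that of Mki67, among the 15693 whose mean was 100 or more, were Lmnb1, lamin B1 of the nuclear envelope (correlation of log2 values 0.978 over 24 samples), Kntc1, a kinetochore protein (0.971), Ncapd2, a condensin subunit (0.970), Bard1, the partner of Brca1 (0.970), and Shcbp1 (0.969). Lmnb1 measured 4667 in A2 and a median of 1239.9 over the 24 samples, and Kntc1 1265 and 217. Without the samples numbered 2 the 5 correlations were between 0.910 and 0.938, over 20 samples.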

How the data were processed

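Messenger RNA was sequenced from 24 rat lung samples, 6 for each letter and 4 for each number of the titles. The authors deposited 1 table of 30667 genes whose values, by their near-whole low values without a constant step, are normalized read counts (a signal scale, not raw counts); the authors' normalization and filters are not given in the sources used here. The submitters' processing notes name STAR and GRCm38, a mouse genome build, without saying how either was used. Some gene names among the deposited values follow mouse naming, such as Gm15603 and E130218I03Rik. If rat reads were counted on mouse genes, levels can differ from those on rat genes, and this was not tested. Read depth is unknown, which limits the precision of low values.

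Values were tested as log2(value + 1) with limma 3.58.1 (limma-trend, R 4.3.3), since count models need raw counts. All 30667 genes passed a mean of at least 0.5. Letters were tested by an F test (3 degrees of freedom) and 6 pairs without a covariate, and numbers by an F test (5 degrees of freedom) and each number against the mean of the other 5, with letter as a covariate. P-values were adjusted by Benjamini-Hochberg over all genes at 0.05. The fits were tested on simulated data. Letters and numbers were read from the titles, and 1 sample fills each combination. Summaries and figures used Python 3.11.15, numpy 2.4.6, pandas 2.3.3 and matplotlib 3.10.9.

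Whether equal numbers pair samples across letters was checked by correlating deviations from letter means over the 21922 genes whose mean reached 10. All 6 correlations were over 0.1 in B against A (0.17 to 0.59) and C against B (0.13 to 0.60), and 4 or 5 of 6 were in the other pairs (lowest -0.05, in G against A). Alternatives were another pseudocount, other scalings, sample weights, the number as a block, and leaving out samples.

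The members and the lists were chosen with earlier results of these data known. Named genes were 17 listed members, up to 6 others with the smallest p per test, the members with the highest and lowest share of variance between numbers, the 2 genes of each other list with the smallest p for numbers and for letters, and the 5 genes outside all lists most correlated with Mki67. Other genes named were chosen after their values were seen.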

Additional observations from a re-analysis of the deposited data

Results flagged for a closer look

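For 17 member genes and 3 scores, each sample was compared with the other 5 of its letter by Dixon's criterion, a gap to the nearest sample that is large against the whole range. Of 80 groups, 37 held such a sample, where chance gives about 1 in 20, or about 4. Genes that move together are not independent, so these counts overlap. Of the 37, 14 were in A2, 15 in C2, 5 in G2 and 1 each in A4, B4 and B1. Of the 33 gene values, 13 also stood apart on the log2 scale.

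In A2 the normalized counts that stood above the rest of letter A were 4647 for Mki67 (next highest 1729), 4362 for Top2a (1757), 2105 for Cdk1 (875), 359 for Ccnb1, 1446 for Plk1, 577 for Birc5 and 698 for Mybl2. Among S phase genes they were 4579 for Mcm2, 3579 for Mcm5, 3435 for Pcna, 3831 for Rrm2, 636 for Ccne1 and 558 for Cdc6. The S phase score of A2 was 1.70, against 0.27 for the next sample.

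In C2 the values above the rest of letter C were 2644 for Mki67 (next highest 1105), 2638 for Top2a (1091), 1317 for Cdk1 (561), 232 for Ccnb1, 857 for Plk1 and 303 for Birc5. The regulators Foxm1, Mybl2 and E2f1 stood apart there with 852, 422 and 1066. The S phase genes were Mcm2 with 3099, Mcm5 with 1928, Rrm2 with 2075, Ccne1 with 299 and Cdc6 with 262, and the S phase score was 1.04.

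In G2 the mitosis genes Top2a, Cdk1 and Plk1 stood above the rest of letter G, with 1510.2 (next highest 787), 816 (435) and 399 (248). The mitosis score of G2 was 0.78, against -0.07 for the next sample, and its S phase score minus its mitosis score was -0.74, against -0.02 for the next lowest.

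Aurkb stood apart in number 4, with 8177 in A4 (next highest 4813) and 6788 in B4 (4400). Pcna stood apart in B1, with 2266 against 1828 for the next B sample.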

How the results depend on the processing

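The count of 33 members called across numbers stayed within 1.5 times, and that of 0 across letters stayed at 0, in every alternative run for them. The 95% of members with their highest value in A2 was the same with pseudocount 10 and with both other scalings, the 3 alternatives run for it. Of 6960 values of single members in the number tests, 6538 kept their direction and side of the threshold, 227 passed it newly, 193 no longer passed and 2 changed sign: without A2 and C2, Pcna was -0.045 and Rrm1 -0.024 in number 2. The cause of these moves was not tested. DESeq2 needs raw counts and was left out, and the unknown read depth limits what low values can show.

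With sample quality weights the members called were 15 in number 1 (8 before), 1 in number 3 (0), 20 in number 5 (7) and 1 in number 6 (0), and the genes called were 4271 in number 2 (6691), 1814 in number 5 (604), 4097 in number 6 (2494) and 3 in G against B (1). Without the samples numbered 2 the members were 31 in number 1, 1 in number 3, 10 in number 4 (6) and 2 in number 6, and the genes 3154 in number 3 (1527), 216 in number 5, and 1 each across letters, in G against A and in G against C (2 each). Without A2 and C2 the members were 28, 13 (37), 2, 18, 19 and 2 in numbers 1 to 6, and the genes 2943 in number 2, 1196 in number 5, and 1 each across letters and in G against A. Across letters 1 gene was called with pseudocount 10, and likewise with scaling to the 75th percentile or by quantiles. With only the 12 samples of a pair, 5 genes were called in G against A and 1 in G against C.

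With number as a replicate block, 12 genes were called across letters, 391 in G against A with 1 member (Tk1), 2 in G against B and 11 in G against C. In B against A and C against B, where all 6 correlations of the pairing check were over 0.1, the block changed no call.

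Leaving out 1 sample at a time gave 0 to 15 members and 1917 to 4100 genes in number 1, 3542 to 7111 genes in number 2, 0 to 9 members and 543 to 2049 genes in number 3, 0 to 16 and 383 to 1976 in number 4, 0 to 22 and 2 to 891 in number 5, and 747 to 2999 genes in number 6. Across letters it gave 1 to 2 genes, in G against A 1 to 4, in G against B 1 to 2 and in G against C 1 to 2.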
